A study of Mus musculus with 12 samples.

Results

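Organic anion and cation transporters of the kidney were examined as 9 genes in whole kidneys of mice with and without A1cf, which encodes an RNA-binding protein. The genes were Slc22a2, Slc22a4, Slc22a5, Slc22a6, Slc22a7, Slc22a8, Slc47a1, Slco4c1 and Abcc2. They were read by symbol from a table of 46882 gene names, all 9 were present, and all 9 had enough counts to be tested among 16910 genes. RNA-seq libraries came from kidneys of 6 wild-type mice (WT: 573, 590, 601, 776, 777 and 778) and 6 A1cf -/- mice (A1cf KO: 574, 584, 588, 591, 602 and 780), named here by animal number. All were C57BL/6 and 6 to 8 weeks old, and neither a treatment nor the sex is named in the labels. The sources used here do not give how the A1cf allele was made.

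The proximal tubule secretes drugs, toxins and metabolites from blood into urine by coupling an uptake carrier on the blood side of the cell to an exporter on the urine side. Organic anions enter mainly through OAT1 (Slc22a6) and OAT3 (Slc22a8), which exchange them for dicarboxylates, and organic cations enter through OCT2 (Slc22a2). MATE1 (Slc47a1) releases cations into urine in exchange for protons, and the ATP-driven pump MRP2 (Abcc2) exports conjugated anions. The carnitine carrier OCTN2 (Slc22a5) works in the other direction and recovers carnitine from the filtrate.

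Libraries held between 26671705 and 52899139 counts, of which the 9 transporters took between 0.404% and 0.487%. A1cf averaged 54.5 ± 7.39 CPM over the WT and 4.11 ± 1.07 CPM over the A1cf KO libraries (CPM, counts relative to TMM-scaled library size, mean ± SD, n = 6 each), and the A1cf levels went with the genotype labels. Every library had at least 1093 counts of the Y-linked Ddx3y and at most 20 of Xist. All 20 proximal tubule markers looked for were expressed, with a summed level of 25560 to 34230 CPM in WT and 28650 to 36790 CPM in A1cf KO, and 12 of the 20 had a positive fold change. The summed level of 10 loop of Henle markers ran from 4804 to 7100 CPM in WT and from 3623 to 4622 CPM in A1cf KO, without overlap, and 9 of the 10 had a negative fold change. So had 9 of 9 distal convoluted tubule, 8 of 8 principal cell and 11 of 11 intercalated cell markers. By edgeR, 0 of the loop of Henle markers passed (background 0.0473% of genes, either direction). DESeq2 called 4 of these 10 markers lower in A1cf KO (background 1.14%, either direction). Of 9 macrophage markers 8 had a positive fold change (median 0.28), and DESeq2 called 2 of them higher while edgeR called 0. Their summed levels were 127 to 183 CPM in WT and 149 to 197 CPM in A1cf KO. The summed level of 6 fat markers ran from 60.6 to 510.1 CPM in WT and from 43.7 to 676 CPM in A1cf KO. The part of these cell types in the transporter results was not tested, apart from a fit with the proximal tubule markers as covariate. Of 6 adrenal cortex markers, 5 were too low to be tested, with at most 10 counts in any library. Cyp11b2 was at 0 counts. The animal numbers form 2 series, 573 to 602 (3 WT, 5 A1cf KO) and 776 to 780 (3 WT, 1 A1cf KO), and the labels do not say what separates them. In bulk tissue, fewer cells of a type and less RNA per cell cannot be told apart.

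No transporter passed the threshold between genotypes, and the groups overlapped for all 9, though 4 had 95% intervals that did not reach 0. Slc22a6, Slc47a1 and Abcc2 had higher means in A1cf KO, by 17.2%, 13.4% and 25.6% in the fit, and Slc22a8 had a lower mean, by a change of -22.9%. The other 5 had 95% intervals that included no change. By the edgeR quasi-likelihood test with Benjamini-Hochberg adjustment, 0 of 9 passed an adjusted p of 0.05 (background 0.0473% of all genes tested), as with DESeq2 (0 of 9, background 1.14%) and limma-voom (0 of 9, background 0.0473%). An unadjusted edgeR p under 0.05 was reached by 4 of 9 (background 10.4%), with 3 higher (background 5.07%) and 1 lower (background 5.28%) in A1cf KO. Groups did not overlap in CPM for 0 of 9 members (background 0.84%). The median log2 fold change was -0.005 over the 9 members and -0.003 over all genes. The sign was negative for 5 of 9 members (background 50.8%). The count at an unadjusted p under 0.05 was 1 within animals 573 to 602 (Slc22a8, background 7.5%). It was 2 when WT 601, WT 776, A1cf KO 574 or A1cf KO 780 was left out, and between 3 and 5 without any other library. The share over all genes is not given for the fits with 1 library left out.

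**Figure D1:**
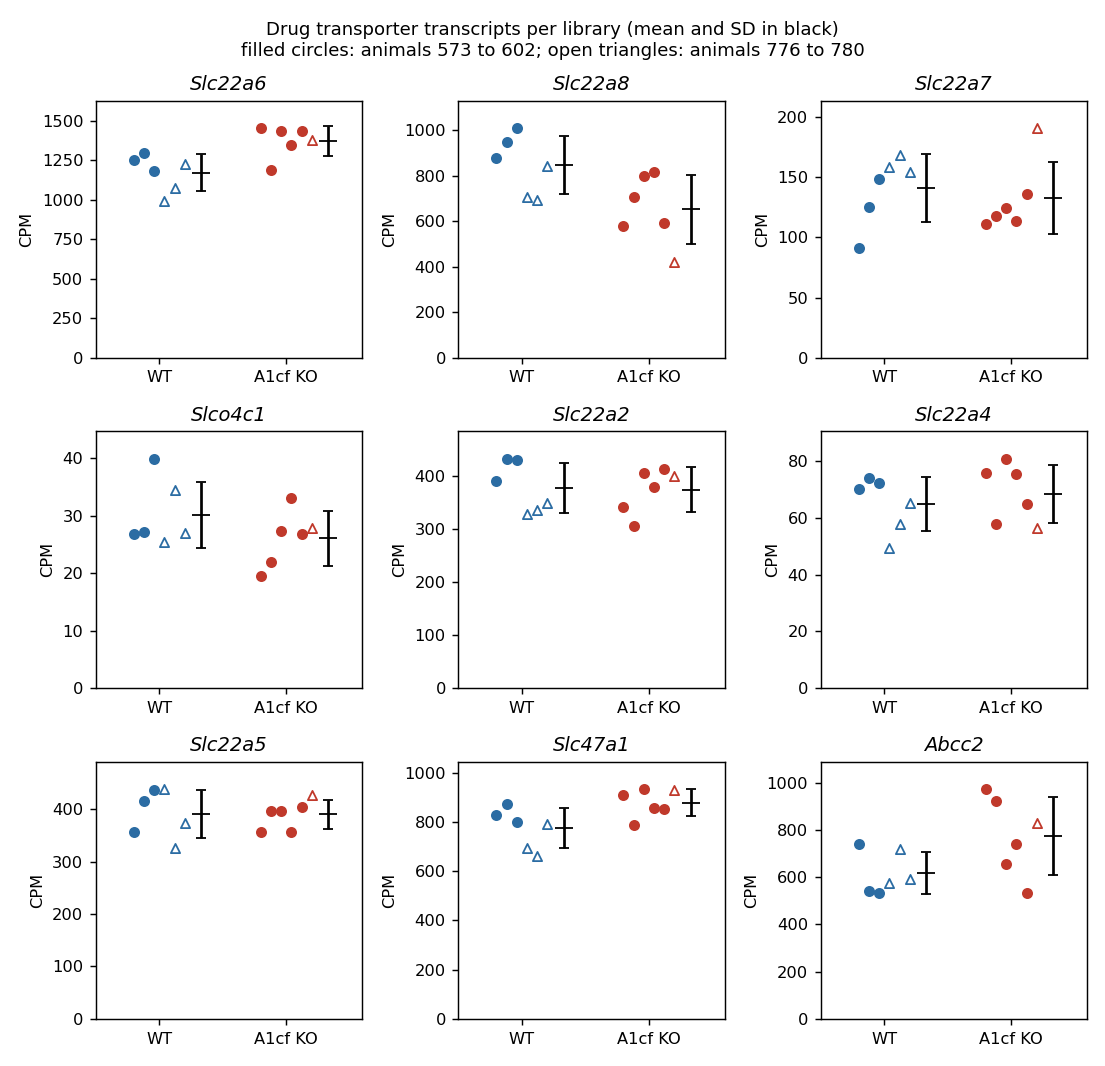
CPM (y axis, starting at 0) of the 9 transporters, 1 point per library, WT in blue and A1cf KO in red (n = 6 each), with mean and SD in black; filled circles are animals 573 to 602 and open triangles animals 776 to 780. All 6 A1cf KO libraries lie above the WT mean for Slc22a6 and Slc47a1 and below it for Slc22a8.

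The main uptake carriers for organic anions, Slc22a6 and Slc22a8, lie next to each other on the plus strand of chromosome 19 (mm10). Slc22a8 spans 8591254 to 8611834 in 12 counted exon segments of 3478 bases, and Slc22a6 spans 8617996 to 8628299 in 10 segments of 4026 bases, with 6161 bases between them. A1cf is on the same chromosome, 23.2 Mb from Slc22a6. The exons of none of the 9 transporters overlap those of another gene name in the table, 0.0% of their counted bases. The 250 bases before the RefSeq start sites of Slc22a8 and Slc22a6 (GRCm38.p6) are shown. The means of these neighbours moved in opposite directions between genotypes, though neither gene passed the threshold. The sequence of Abcc2 is added as the third anion carrier with a shifted mean.

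Slc22a8, chr19:8592932-8593181, plus strand: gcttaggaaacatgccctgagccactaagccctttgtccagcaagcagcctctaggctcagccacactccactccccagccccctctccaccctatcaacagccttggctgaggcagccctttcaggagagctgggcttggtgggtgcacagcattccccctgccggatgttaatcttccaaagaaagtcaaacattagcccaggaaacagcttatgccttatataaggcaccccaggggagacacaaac
Slc22a6, chr19:8617746-8617995, plus strand: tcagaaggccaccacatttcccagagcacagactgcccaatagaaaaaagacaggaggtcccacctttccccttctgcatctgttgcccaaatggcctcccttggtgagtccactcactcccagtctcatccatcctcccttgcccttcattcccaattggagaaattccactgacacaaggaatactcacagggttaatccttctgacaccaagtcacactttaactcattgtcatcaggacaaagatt
Abcc2, chr19:43782058-43782307, plus strand: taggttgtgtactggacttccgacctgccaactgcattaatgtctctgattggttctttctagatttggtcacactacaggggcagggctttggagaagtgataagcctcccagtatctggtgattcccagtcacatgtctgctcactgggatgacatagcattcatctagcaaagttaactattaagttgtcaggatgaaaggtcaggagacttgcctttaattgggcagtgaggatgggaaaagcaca

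All letters are in lower case, since no part is singled out. G and C made up 55.2% of the bases for Slc22a8, 48.4% for Slc22a6 and 45.6% for Abcc2. Both strands were searched for a direct repeat bound by nuclear receptors, AGGTCA and AGGTCA with any 1 base between them and up to 2 mismatches. It was in 0 of 7 members and in 3.24% of all 32851 promoters in the RefSeq table, over windows of this length. The exact letters TATAAA were in 0 of 7 members and in 12.4% of promoters. Variants such as TATATAAG, which the printed Slc22a8 sequence holds, were not searched. RefSeq promoters matched 7 of 9 members, without Slc22a7 and Slc47a1. The RefSeq starts of Slc22a8 at 8593182 and of Abcc2 at 43782308 lie inside the counted genes, whose first exons start at 8591254 and 43782192. The sequence of Slc22a8 and the end of that of Abcc2 thus fall within the counted genes' spans.

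Slc22a8 encodes OAT3, which takes up anionic drugs, steroid conjugates and some cations. It ran from 695 over a median of 859.5 to 1008 CPM in WT, and from 419 over 649 to 817 CPM in A1cf KO. A1cf KO 780 was lowest, with A1cf KO 574 at 579 and A1cf KO 602 at 591 CPM, and the groups overlapped between 695 and 817 CPM. The log2 fold change was -0.38 (SE 0.15, 95% interval -0.69 to -0.06, edgeR adjusted p = 0.40), and 6 of 6 A1cf KO libraries lay below the WT mean. The exact two-sided permutation p on log2 CPM was 0.0346. With the animal number series as a covariate it was -0.55 (SE 0.11, edgeR adjusted p = 0.0873), and 0 of 9 members passed in that fit (background 0.142%), with 3 of 9 at an unadjusted p under 0.05 (background 12.9%). Within animals 573 to 602 the fold change was -0.44 (edgeR adjusted p = 0.519). In that series the groups did not overlap for 1 of 9 members, Slc22a8, against a background of 5.61% of all genes tested there, and 0 of 9 members passed by edgeR (background 0.0402%). With the mean of the proximal tubule markers as a covariate it was -0.46 (edgeR adjusted p = 0.0904). Without WT 601 the fold change was -0.32 and its unadjusted p was above 0.05, and without A1cf KO 780 it was -0.28.

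Slc22a6 encodes OAT1, the carrier of p-aminohippurate and of many antiviral drugs and diuretics. It ran from 992 over a median of 1205 to 1298 CPM in WT, and from 1191 over 1407 to 1453 CPM in A1cf KO. All 6 A1cf KO libraries lay above the WT mean, and only A1cf KO 584 lay within the WT range. Without A1cf KO 584 the groups did not overlap for 1 of 9 members, Slc22a6 (background 1.33%). The log2 fold change was 0.23 (SE 0.077, 95% interval 0.06 to 0.39, edgeR adjusted p = 0.346), with the smallest adjusted p of the 9 members. The exact two-sided permutation p on log2 CPM was 0.0108. Fitted with the series covariate it was 0.20 (edgeR adjusted p = 0.313), and over animals 573 to 602 alone 0.14 (edgeR adjusted p = 0.735).

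**Figure D2:**
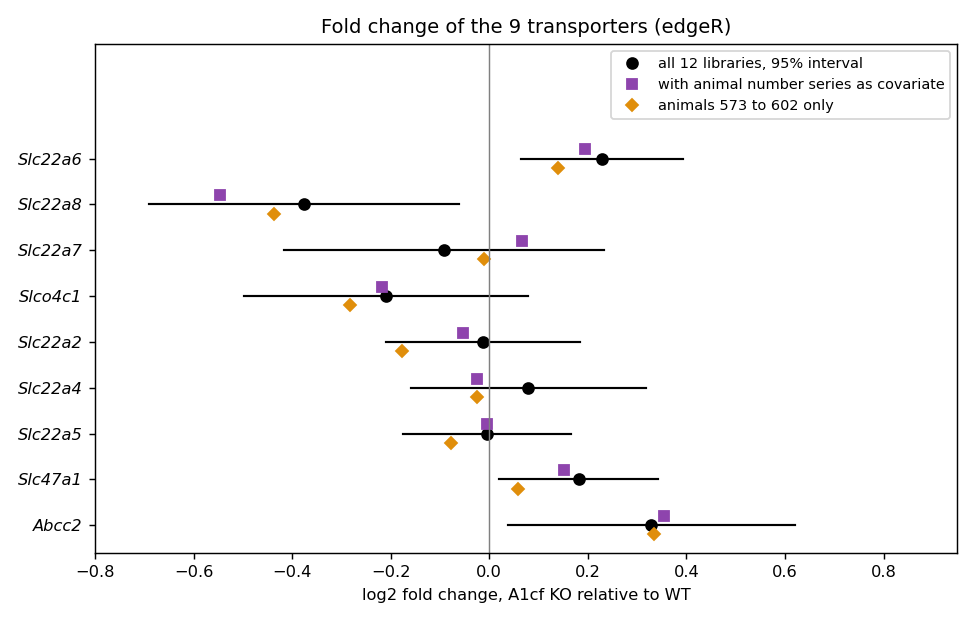
A1cf KO over WT as a log2 fold change (x axis) of the 9 transporters by edgeR, with 95% intervals for all 12 libraries (black), the value with the animal number series as covariate (purple squares) and that of animals 573 to 602 alone (orange diamonds). Slc22a8 is negative in all 3 fits (-0.38, -0.55 and -0.44), and Slc22a4 and Slc22a7 lie on either side of 0 depending on the fit.

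The ratio of Slc22a8 to Slc22a6, which does not depend on how libraries are scaled, was lower in A1cf KO. On a log2 scale of CPM, WT libraries held -0.63 to -0.23 and A1cf KO libraries -1.72 to -0.72, and the groups did not overlap. The means were -0.48 ± 0.14 and -1.11 ± 0.40 (SD, n = 6 each), a difference of -0.63 (exact two-sided permutation p = 0.00216, the smallest that 6 against 6 libraries can give). The adjusted p was 0.00864 over 4 ratios by the exact permutation test. These ratios were chosen after the counts of the members had been seen, which that adjustment does not cover. Within animals 573 to 602 the difference was -0.59 (exact permutation p = 0.0357), where 3 against 5 libraries cannot give less than 0.0179. A1cf KO 780 had the lowest ratio, and without it the difference was -0.51 (exact permutation p = 0.00216). The ratio of Slc22a2 to Slc47a1, the uptake carrier and exporter of cations, was -1.04 ± 0.10 in WT and -1.24 ± 0.13 in A1cf KO (n = 6 each, exact permutation p = 0.0216, adjusted p = 0.0432). For Slc22a5 to Slc22a4 and Slc22a6 to Abcc2 the difference was -0.08 each (exact permutation p = 0.66 and 0.667, adjusted p = 0.667 for both).

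**Figure D3:**
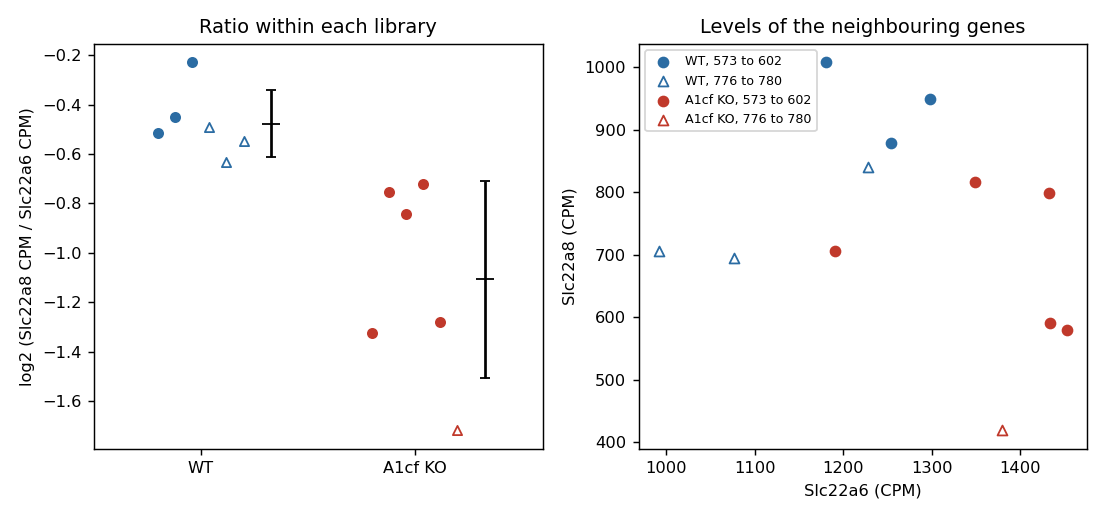
Left, the log2 ratio of Slc22a8 to Slc22a6 CPM in each library by genotype, with mean and SD in black; right, Slc22a8 CPM (y axis) against Slc22a6 CPM (x axis). Blue is WT and red A1cf KO (n = 6 each), filled circles are animals 573 to 602 and open triangles animals 776 to 780. The lowest WT ratio is -0.63 and the highest A1cf KO ratio -0.72.

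The anion carrier genes Slc22a7 and Slco4c1 had lower levels per exon length than Slc22a6 and Slc22a8. Slc22a7 encodes OAT2, which carries cyclic nucleotides and other anions, and lies on chromosome 17 from 46432185 to 46438477. It ran from 91.2 over a median of 151 to 168 CPM in WT, and from 111 over 121 to 190.3 CPM in A1cf KO, so the ranges overlapped widely (log2 fold change -0.09, SE 0.15, edgeR adjusted p = 0.872). Leaving out 1 library moved it between -0.22 (without A1cf KO 780) and -0.03 (without WT 777). Its fold change was 0.07 with the series covariate (edgeR adjusted p = 0.829). Slco4c1, on chromosome 1 from 96816270 to 96872171, encodes a basolateral carrier of digoxin and thyroid hormone. It ran from 25.4 over 27.1 to 39.9 CPM in WT and from 19.5 over 27.0 to 33.1 CPM in A1cf KO. Its log2 fold change was -0.21 (SE 0.13, edgeR adjusted p = 0.621), and its medians were nearly equal. That value was -0.11 without WT 601 and -0.14 without A1cf KO 574.

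Of the cation carriers, Slc47a1 had a higher mean in A1cf KO, and the interval of Slc22a2 included no change. Slc22a2, the basolateral uptake carrier for metformin and other cations (chromosome 17, 12584189 to 12628465), ran from 329 over 369 to 431 CPM in WT and from 306 over 389 to 412 CPM in A1cf KO. Its log2 fold change was -0.01 (95% interval -0.21 to 0.18, edgeR adjusted p = 0.974). Slc47a1, the exporter MATE1 (chromosome 11, 61343401 to 61378345), ran from 659.8 over 794 to 872 CPM in WT and from 788 over 883 to 932 CPM in A1cf KO. All 6 A1cf KO libraries exceeded the WT mean, and 3 of them the highest WT library. The log2 fold change of Slc47a1 was 0.18 (SE 0.076, 95% interval 0.02 to 0.34, edgeR adjusted p = 0.424). On log2 CPM its two-sided p was 0.0325 by exact permutation. With series as a covariate it was 0.15 (edgeR adjusted p = 0.423), and over animals 573 to 602 alone it was 0.06 (edgeR adjusted p = 0.884).

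For the carriers of carnitine and ergothioneine the intervals included no change. Slc22a5, whose loss causes carnitine deficiency, is on chromosome 11 from 53864542 to 53891660. It ran from 327 over 395 to 438 CPM in WT and from 356 over 397 to 427 CPM in A1cf KO, with a log2 fold change of -0.01 (95% interval -0.18 to 0.17, edgeR adjusted p = 0.989). Slc22a4, the ergothioneine carrier OCTN1, lies 91.5 kb away (53983123 to 54028090). It ran from 49.2 over 67.7 to 74.0 CPM in WT and from 56.4 over 70.0 to 80.7 CPM in A1cf KO, with a log2 fold change of 0.08 (95% interval -0.16 to 0.32, edgeR adjusted p = 0.845). It was -0.03 with the series covariate (edgeR adjusted p = 0.935), 0.01 without WT 776 and 0.13 without A1cf KO 780.

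Abcc2, the apical pump MRP2 for glutathione and glucuronide conjugates, is on chromosome 19 from 43782192 to 43840740, 11.8 Mb from A1cf. It ran from 533.3 over 583 to 740 CPM in WT and from 533.1 over 784 to 971 CPM in A1cf KO. A1cf KO 574 and 584 were highest, at 971 and 922 CPM, while A1cf KO 602 was as low as the lowest WT library. The log2 fold change of 0.33 was the highest of the 9 (SE 0.14, 95% interval 0.04 to 0.62, edgeR adjusted p = 0.424). The exact two-sided permutation p was 0.0779 on log2 CPM (n = 6 each). With series as a covariate the fold change was 0.35 (edgeR adjusted p = 0.335), and over animals 573 to 602 alone it was 0.33 (edgeR adjusted p = 0.722).

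Per exon length, Slc22a6 was the most abundant of the 9 in WT, at 291 ± 28.8 RPKM (CPM per kilobase of counted exon, SD, n = 6). It was followed by Slc22a8 at 243 ± 36.5, Slc47a1 at 229 ± 23.9, Slc22a2 at 178 ± 21.9 and Slc22a5 at 127 ± 14.9 RPKM. These 5 lay in the top 2.4% of all genes tested by WT level. Abcc2 (72.3 ± 10.6 RPKM) and Slc22a7 (70.1 ± 14.1 RPKM) did not differ beyond their spread, with Abcc2 higher in 3 of 6 WT libraries. Slc22a4 was at 25.4 ± 3.75 RPKM and Slco4c1 at 6.15 ± 1.18 RPKM. In WT, Slc22a8 exceeded Slc47a1 in 5 of 6 libraries, within the spread of their means, and in A1cf KO it did so in 0 of 6 (188 ± 43.6 against 259.5 ± 16.6 RPKM). Every other pair of neighbours in this order had the same order in 6 of 6 libraries of each genotype.

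**Figure D4:**
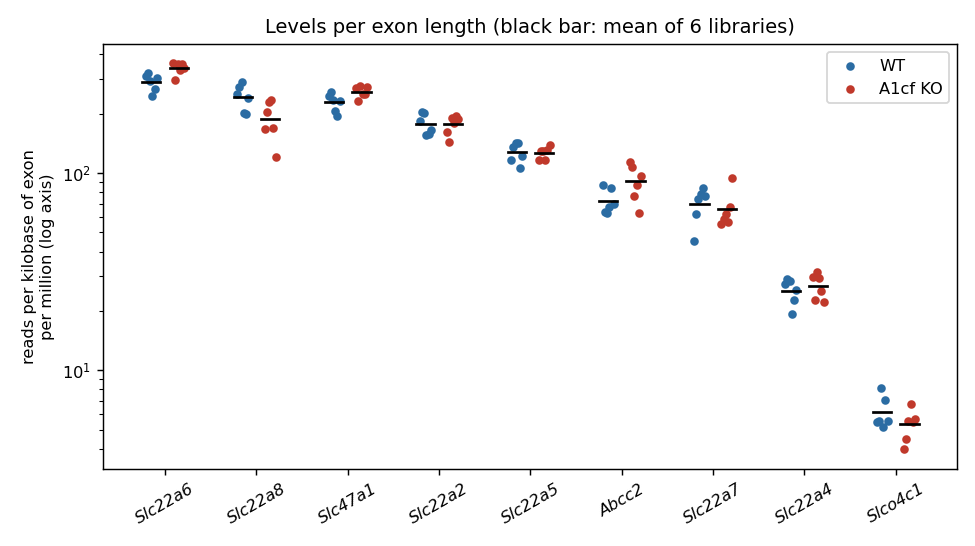
Level per exon length (y axis, RPKM, log axis) of the 9 transporters in each WT (blue) and A1cf KO (red) library, ordered by WT mean, with the mean of 6 libraries as a black bar. Slc22a6 is highest (291 RPKM in WT) and Slco4c1 lowest (6.15 RPKM in WT).

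Animal number series separated some members. In the model of genotype and series, Slc22a7 was higher in animals 776 to 780, with 160 ± 7.13 CPM against 121 ± 28.5 CPM in WT (SD, n = 3 each) and 190.3 CPM in A1cf KO 780 against 121 ± 9.93 CPM (n = 5). The log2 difference of 0.50 (SE 0.11, edgeR adjusted p = 0.0247) passed, as 1 of 9 members (background 2.9% of all genes tested), with 3 of 9 at an unadjusted p under 0.05 (background 18.4%). This call was lost without WT 776 (edgeR adjusted p = 0.0521), WT 777 (0.0517) or A1cf KO 780 (0.217). Slc22a8 had a log2 difference of -0.48 (edgeR adjusted p = 0.0513) and Slc22a4 of -0.33 (edgeR adjusted p = 0.082). DESeq2 called these 3 members (3 of 9, background 7.32%). Some cell type markers also differed by series. The summed level of 8 endothelial markers was 328 to 382 CPM in WT 776 to 778 and 380.0 CPM in A1cf KO 780, above the 195 to 251 CPM (WT) and 243 to 306 CPM (A1cf KO) of animals 573 to 602. In WT the summed proximal tubule markers were 25560 to 27890 CPM in animals 776 to 778 and 32140 to 34230 CPM in the others. A1cf KO 780 was at 30860 CPM, within the 28650 to 36790 CPM of the A1cf KO animals 573 to 602. The part of these cells in the series differences was not tested. The genotype difference was not shown to depend on the series: by edgeR 0 of 9 passed for the interaction (background 0%), with 1 of 9 at an unadjusted p under 0.05 (Slc22a2, adjusted p = 0.999, background 3.81%). That test rests on 1 A1cf KO library in animals 776 to 780.

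Covariation among animals of 1 genotype was described for the 36 pairs of members, after each genotype's mean log2 CPM was taken off. The pair with the highest r was Slc22a6 with Slc47a1, r = 0.87 over 12 libraries (permutation p = 0.00237, adjusted p = 0.0853) and rho = 0.78 (permutation p = 0.00925, adjusted p = 0.205). It was r = 0.87 without WT 776 and A1cf KO 584, the libraries farthest from the median of Slc22a6, and 0.89 within the 8 animals 573 to 602. Slc22a4 with Slc22a6 had r = 0.78 (permutation p = 0.00485, adjusted p = 0.0873) and rho = 0.64 (permutation p = 0.0353, adjusted p = 0.205), with r = 0.76 without WT 776 and A1cf KO 780 and 0.69 within animals 573 to 602. By the permutation test 0 of 36 pairs passed the adjusted threshold, and 8 had an unadjusted p under 0.05. The share over pairs of other genes is not given, so these counts do not set the members apart from other genes. Without A1cf KO 780, 3 pairs among Slc22a4, Slc22a6 and Slc47a1 passed (r = 0.86 to 0.89), and without A1cf KO 584, Slc22a4 with Slc22a8 did (r = 0.84, permutation p = 0.00138, adjusted p = 0.0497). The neighbours Slc22a6 and Slc22a8 had r = 0.23 (permutation p = 0.461, adjusted p = 0.698), rho = 0.19 (permutation p = 0.546, adjusted p = 0.723), r = 0.27 without WT 776 and A1cf KO 584, and r = -0.34 within animals 573 to 602. The summed proximal tubule markers ran from 25560 to 36790 CPM over the same libraries, and their part in these relations was not tested.

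**Figure D5:**
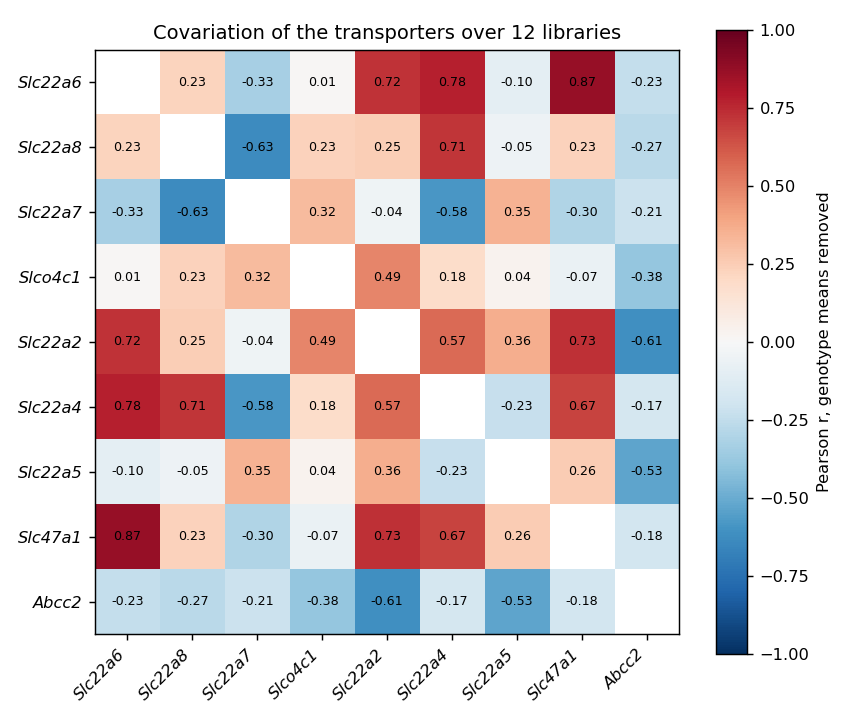
Pearson r between each pair of transporters over 12 libraries after removal of genotype means (colour scale from -1, blue, to 1, red). Slc22a6 with Slc47a1 is highest (0.87), and the neighbours Slc22a6 and Slc22a8 have 0.23.

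Among 12552 other genes of at least 1 CPM, the gene most like each member over the 12 libraries was taken by Pearson r in the same values, as a description without a test. For Slc22a8 it was Prlr, the prolactin receptor gene (r = 0.96), and for Slc22a6 Fah, an enzyme gene of tyrosine breakdown (r = 0.95). For Slc47a1 it was Ggct, an enzyme gene of glutathione breakdown (r = 0.95), for Slc22a2 the lysosomal galactosidase gene Glb1 (r = 0.97), and for Slc22a5 the pyruvate carboxylase gene Pcx (r = 0.88). For Slc22a4 it was Ptges2 (r = 0.96), for Slc22a7 Wbp1l (r = 0.97), for Slco4c1 Gltp (r = 0.93) and for Abcc2 the sialidase gene Neu3 (r = 0.95). Prlr averaged 27.1 ± 15.6 CPM over WT libraries, against 11.2 ± 7.38 CPM over A1cf KO (log2 fold change -1.26, edgeR adjusted p = 0.368), and was lowest in A1cf KO 780 as Slc22a8 was.

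Other carriers of the same families were taken from lists. Of 17 tested SLC22 genes besides the members, 0 passed by edgeR (background 0.0473%) or DESeq2 (background 1.14%). At an unadjusted edgeR p under 0.05, 1 was higher (background 5.07%) and 2 were lower (background 5.28%). Their median log2 fold change was -0.05, against -0.003 over all genes. Slc22a30 was at 163 ± 30.5 and 204 ± 28.3 CPM (edgeR adjusted p = 0.381), and Slc22a29 at 1.71 ± 0.71 and 0.86 ± 0.32 CPM (edgeR adjusted p = 0.314). The most abundant per length were the urate carrier gene Slc22a12 (675 RPKM in WT, log2 fold change 0.08) and Slc22a18 (257 RPKM in WT, log2 fold change -0.06). Of 8 tested SLCO genes 0 passed by edgeR or DESeq2 (median 0.13), with 1 higher at an unadjusted p under 0.05 (background 5.07%). That gene was Slco1a1, a carrier known for high levels in male kidney, at 236 ± 61.0 and 387 ± 139 CPM (edgeR adjusted p = 0.297). Slco3a1 had a log2 fold change of 0.20, and Slco1a6, the most abundant SLCO gene per length (59.7 RPKM in WT), of -0.13.

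Further exporters and partner proteins were as little called. Of 13 tested efflux genes 0 passed by edgeR or DESeq2 (median -0.03). At an unadjusted p under 0.05, 1 was lower (background 5.28%), the pump gene Abcc1 (30.4 ± 3.91 and 26.2 ± 2.57 CPM). Abcc5 had a log2 fold change of -0.15, and the phosphate and urate carrier genes Slc17a1 and Slc17a3 had 0.12 and 0.08. Of 11 genes for dicarboxylate carriers, scaffold proteins and the sodium pump, 0 passed by either tool (median -0.02). An unadjusted p under 0.05 was reached by 0 of them (background 10.4%). In this list Pdzk1ip1 and the scaffold gene Slc9a3r1 had log2 fold changes of -0.09 and 0.09, and the sodium pump subunit gene Atp1b1 of -0.01. Of 19 regulators 0 passed by edgeR or DESeq2 (median 0.04). In this list Hnf4g and Hnf4a had log2 fold changes of 0.25 and 0.06, and the bile acid receptor gene Nr1h4 had 0.05.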

How the data were processed

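The values are read counts per gene name that the authors deposited in 1 table. Per the file headers, featureCounts 1.5.0-p2 summed reads over the exons of each GENCODE M8 gene name, without strand, pair or duplicate options. Per the submitters' processing notes, STAR, DESeq2 and mm10 were used; their versions are not known here. The other deposited value used is the exon length per gene name, in the authors' table. Reads shared by near-identical family members could have been lost or split.

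Between genotypes, counts were tested with edgeR 4.0.16 under R 4.3.3 (filterByExpr, TMM, quasi-likelihood F test for genotype, Benjamini-Hochberg over 16910 genes, threshold 0.05), with DESeq2 1.42.0 and limma 3.58.1 (voom) beside it. Log2 CPM used a prior count of 2. Single values were compared over all 924 divisions of the libraries, and correlations with 100000 permutations within genotype. In counts simulated for this comparison over 16910 genes, edgeR recovered 52.6% of genes changed by 0.5 and 82.7% of those changed by 1 on the log2 scale. That simulation changed 200 genes and held no series effect, and 12 unchanged genes were called. Recovery depends on the number of changed genes, which is not known for the data. No 2 libraries agreed within sampling noise (lowest chi-square per degree of freedom 17.3 over 66 pairs).

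The members and lists were chosen with earlier results of these data known. Named were all members, A1cf, and per list the passing genes or else the 2 with the smallest p and the 2 with the highest RPKM, with the most similar gene per member. Alternatives were other scalings, filters and tests, the robust fit, the series or the proximal tubule markers as covariate, animals 573 to 602 alone, and each library left out. Some results that these rules would name are not reported here.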

Additional observations from a re-analysis of the deposited data

Results flagged for a closer look

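Slc22a7 in A1cf KO 780 stood at 190.3 CPM, far above the other A1cf KO libraries, of which the next was at 136 CPM and the lowest at 111 CPM. It is the only A1cf KO animal of the series 776 to 780, whose WT animals were at 160 ± 7.13 CPM (n = 3). The gap took 0.684 of the range of the group, above the 95% limit of 0.625 for 6 samples. Chance flags about 1 in 20 groups, and 18 groups were looked at.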

How the results depend on the processing

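No paired analysis was made, since the labels used here name no litter or other pairing of WT with A1cf KO animals. Over 22 alternatives, 0 of 9 members passed in any. All genes past the threshold numbered 8, with 170 by DESeq2, 24 with the series covariate, 20 with the proximal tubule marker covariate, and 6 to 12 when 1 library was left out. Members at an unadjusted p under 0.05 numbered 4 (background 10.4%), with 1 within animals 573 to 602 (background 7.5%). They numbered 2 to 5 when 1 library was left out. Members without overlap numbered 0, with 1 within animals 573 to 602 (Slc22a8, background 5.61%) and 0 to 1 when 1 library was left out (Slc22a6 without A1cf KO 584, background 1.33%). For the series, 1 member passed (background 2.9%), with 3 by DESeq2 (background 7.32%). The count was 2 without a filter, 2 with the stricter filter, 2 by limma-voom and 2 in the robust fit. It was 0 to 3 when 1 library was left out. Shares over all genes are not given for settings without a background here. Pairs of members past the adjusted threshold numbered 0, and 0 to 3 when 1 library was left out. Slc22a6, Slc47a1, Abcc2, Slc22a8 and Slco4c1 kept their direction in all 22 alternatives. The log2 fold change of Slc22a4 turned to -0.026 with the series covariate and to -0.026 within animals 573 to 602, and that of Slc22a7 to 0.065 with the series covariate. Leaving out 1 library moved Slc22a2 between -0.048 and 0.04 and Slc22a5 between -0.05 and 0.029. Within animals 573 to 602 these 2 genes were at -0.177 and -0.078. The ratio of Slc22a8 to Slc22a6 differed by -0.707 to -0.508 when 1 library was left out, with alternatives chosen after the data were seen. The cause of these shifts was not tested. Changes below 0.5 on the log2 scale, such as those of the members, were not simulated.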
